A study of Mus musculus with 10 samples.

Results

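GLIS3 binding in the mouse thyroid was measured by ChIP-Seq, and the sites described are those on chromosomes 11 and 19. They were taken from the deposited list of GLIS3 sites by chromosome alone. The chromosomes had been chosen by their number of sites, which was higher relative to chromosome length than on any other chromosome. Of 18513 sites in all, 2163 (11.7%) lay on these chromosomes, 1487 on chromosome 11 and 676 on chromosome 19. High counts per Mb or per window therefore follow from the choice and are given as description. The number of tags at a site and its fold over the control had no part in the choice.

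The thyroid glands of the GLIS3 library were those of Glis3-EGFP mice (C57BL/6 background, labelled GLIS3-EGFP-fusion), in which endogenous GLIS3 is fused to EGFP. The control, called WT GFP-ChIP, came from wild type C57BL/6 thyroid glands, which hold no EGFP. Before collection, both groups had 2 weeks of low-iodine feeding (LID). Chromatin was captured with agarose carrying a GFP-binding peptide, from whole glands rather than sorted follicular cells, and the Glis3-EGFP mice were young adults. Each group had 1 ChIP library, and the sources used here do not say how many animals it pooled, so the spread between animals is unknown and no test between groups was made. RNA of the glands was not analysed here, so the tissue was not checked against thyroid markers. After selection, 4516562 tags of the Glis3-EGFP library were used, beside 5171171 of the WT GFP-ChIP.

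GLIS3 is a Krüppel-like zinc finger transcription factor that thyroid follicular cells need to make thyroid hormone. A low-iodine diet raises thyroid stimulating hormone (TSH), the pituitary signal that drives hormone synthesis and the growth of follicular cells. Transcription factors such as GLIS3 bind promoters and enhancers, often several to a locus, so their sites tend to gather where genes and open chromatin are dense and to be sparse in gene-poor stretches. Mouse chromosomes 11 and 19 are both gene-dense for their size, and chromosome 7 is as well. Of 23 genes of thyroid transcription factors, hormone synthesis and hormone action, all matched in RefSeq, 1 lies on chromosome 11 and 2 on chromosome 19. The gene on chromosome 11 is Thra, which encodes thyroid hormone receptor alpha. Those on chromosome 19 are Glis3 itself and Hhex, which encodes a homeobox factor of thyroid development. The sites are given in mm9 and the annotation used here is of GRCm38, so no site was assigned to a gene and no sequence of a site is printed.

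Chromosome 11 held 8.03% of all sites (95% exact binomial interval 7.64% to 8.43%, for counting error only) on 4.62% of the length, where length is the position of the last site. Chromosome 19 held 3.65% (3.39% to 3.93%) on 2.32% of the length. This came to 12.2 sites per Mb on chromosome 11 and 11.1 on chromosome 19, while the 17 other autosomes had 4.95 to 8.85. Counted by genes, both chromosomes lay within the range of the others. There were 92.4 sites per 100 RefSeq protein-coding genes on chromosome 11 and 95.9 on chromosome 19, beside 52.9 to 131.1 on the other autosomes, whose median was 92.7. Chromosome 11 ranked 11 of 19 autosomes by this measure and chromosome 19 ranked 7. The lowest value, 52.9, was that of chromosome 7, with 9.28% of the genes on 5.79% of the length and 7.05 sites per Mb. By comparison, chromosomes 11 and 19 held 7.35% and 3.22% of the genes.

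**Figure D1:**
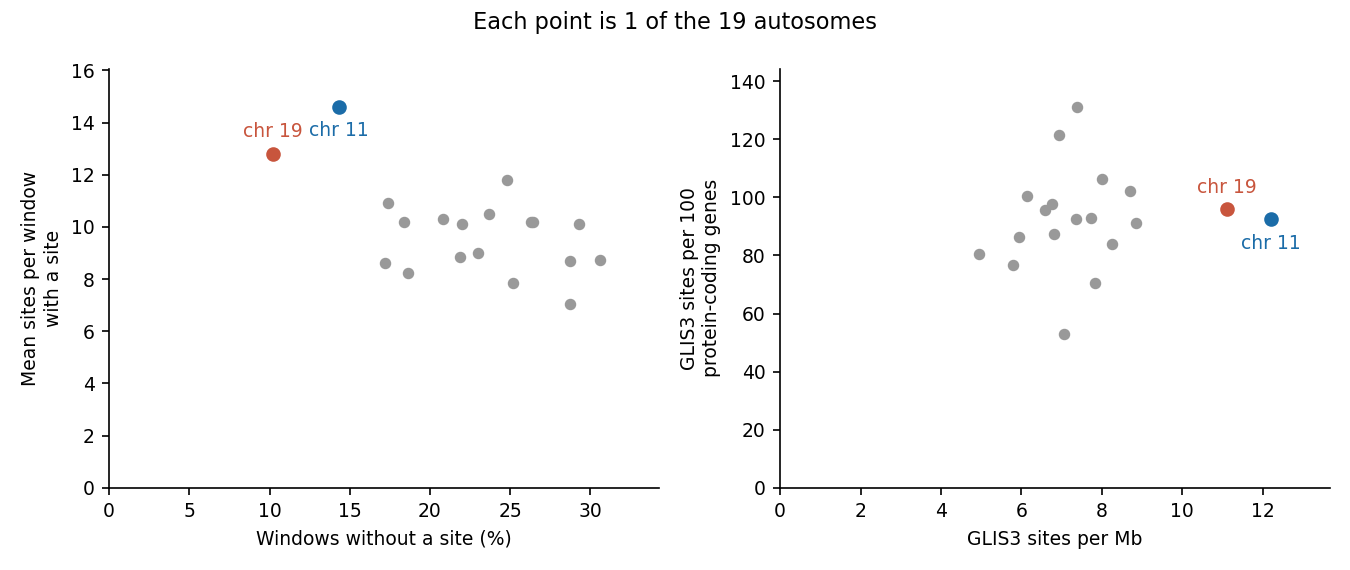
Each point is 1 of the 19 autosomes, with chromosomes 11 (blue) and 19 (red) named. Left, the mean number of GLIS3 sites per 1 Mb window that held a site against the share of windows without a site (%), where chromosomes 11 and 19 lie apart at 14.3% and 10.2% of windows empty. Right, sites per 100 protein-coding genes against sites per Mb, where both lie at the far right but within the height of the other autosomes.

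The strength of single sites was close to that elsewhere. The median site held 13 tags on chromosome 11 (quartiles 10 and 19) and 13 tags on chromosome 19 (quartiles 10 and 18). Over the other autosomes together the median was 13 tags as well, with quartiles of 10 and 19. A count of 13 tags has a 95% Poisson interval of 6.92 to 22.2, and the lowest count a site could have, 9 tags, has one of 4.12 to 17.1. The median fold was 13.7 on both chromosomes and 13.7 on the other autosomes. The fold compares the tags of a site with those of the WT GFP-ChIP after scaling by library size. A site without a control tag was treated as having 1, so many folds are lower bounds. Where control tags were recovered, 81.6% of sites in the whole list had 0 or 1. At these sites the fold is the tag count times a constant, so it largely repeats the tags.

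The share of strong sites was near that of the list as a whole. A fold of at least 20 was found at 23.8% of all sites, and at 368 sites on chromosome 11 (24.7%, interval 22.6% to 27%) and 146 on chromosome 19 (21.6%, 18.6% to 24.9%). At least 50 tags were found at 3.08% of all sites, and at 40 sites on chromosome 11 (2.69%, 1.93% to 3.65%) and 16 on chromosome 19 (2.37%, 1.36% to 3.82%). All of these intervals hold the value of the whole list. Among the 19 autosomes, chromosome 11 ranked 7 by the share of high folds and 13 by that of 50 tags, and chromosome 19 ranked 16 by both. Sites with 9 tags made up 16.3% on chromosome 11. They made up 19.2% on chromosome 19, the highest of the 19 autosomes, beside 13.7% to 19% on the 17 others. Chromosome 11 held 7.66% of the sites with 9 tags, 8.06% of those with 10 to 19, 8.41% of those with 20 to 49 and 7.01% of those with 50 or more. For chromosome 19 the shares were 4.12%, 3.53%, 3.76% and 2.8% in the same order. The intervals of these shares overlap between all classes of tags on each chromosome, and a trend with strength was not tested.

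To see where along each chromosome the sites gather, they were counted in windows of 1 Mb, starting at 3 Mb because no autosome had a site before that position. Sites covered most of both chromosomes. Of 119 windows on chromosome 11, 17 (14.3%, interval 8.55% to 21.9%) held no site. Of 59 on chromosome 19, 6 (10.2%, 3.82% to 20.8%) held none. On the other autosomes 17.2% to 30.6% of windows were empty, a range that both intervals reach into. With windows moved by 0.5 Mb the share was 14.3% on chromosome 11 and 5.17% on chromosome 19. With the 50% of sites that had the most tags it was 18.5% and 20.3%. The other autosomes were not counted under these settings. Windows that held a site also held more of them. The mean was 14.6 on chromosome 11 and 12.8 on chromosome 19, beside 7.05 to 11.8 on the other autosomes. Fewer empty windows and fuller ones are both parts of the higher number of sites by which the chromosomes were chosen, and are given as description. Windows of 20 or more sites, called dense here, made up 22.7% of windows on chromosome 11 (27 windows) and 22% on chromosome 19 (13 windows), beside 8.97% on the other autosomes together.

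**Figure D2:**
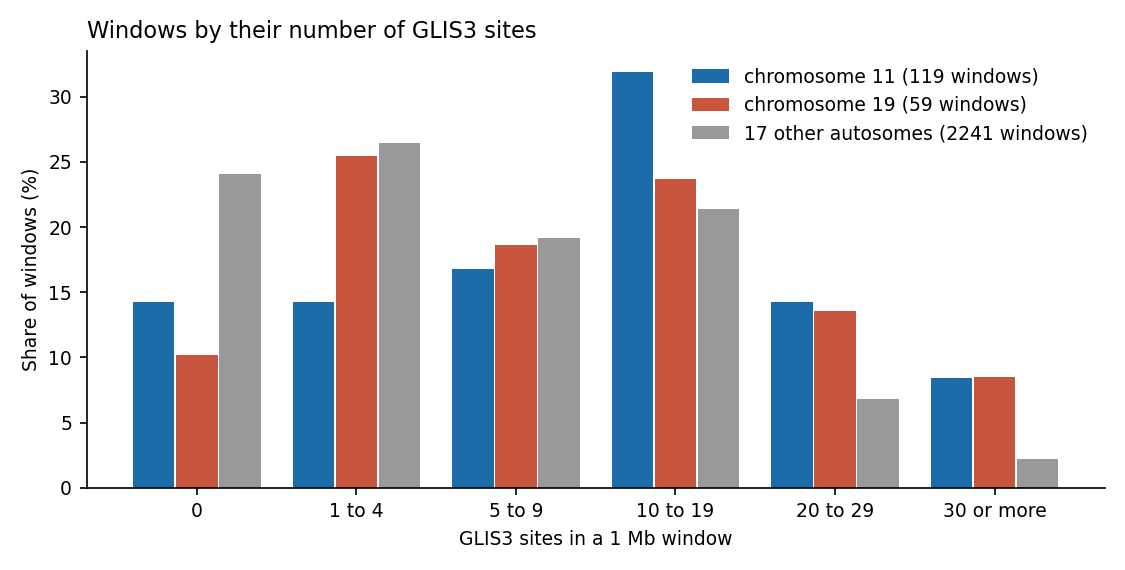
Share of 1 Mb windows (%) by their number of GLIS3 sites, for chromosome 11 (blue, 119 windows), chromosome 19 (red, 59 windows) and the 17 other autosomes (grey, 2241 windows). Windows of 30 or more sites make up 8.4% on chromosome 11 and 8.47% on chromosome 19 but 2.19% elsewhere.

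Sites were nonetheless unevenly spread within each chromosome. The dense windows of chromosome 11 held 774 of its sites (52.1%), and those of chromosome 19 held 358 (53%). The fullest windows that together held 50% of the sites numbered 26 on chromosome 11 and 12 on chromosome 19, or 21.8% and 20.3% of their windows. On the other autosomes this took 13.8% to 22.3% of windows. The variance of the count per window was 9.34 times its mean on chromosome 11 and 9.58 times on chromosome 19, within the range of 7.09 to 11.9 on the other autosomes. The strength of sites in dense and thin windows lay within overlapping intervals. On chromosome 11 the median was 13 tags in dense windows (interval 13 to 14) and 12 tags in windows of 1 to 4 sites (10 to 18). On chromosome 19 it was 13 tags (13 to 14) and 12 tags (10 to 15).

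Chromosome 11 leaned towards its distal end, though without a steady rise. Split at 62.3 Mb, the middle of the range from 3 Mb to the last site, the distal part held 932 sites (62.7%) and the proximal part 555. The segment from 110 to 120 Mb held 236 sites, or 23.6 per Mb, and the last 1.66 Mb held 43. Between 10 and 20 Mb there were 50 sites and between 20 and 30 Mb there were 47, or 4.7 per Mb. From 3 to 10 Mb there were 15 per Mb, from 70 to 80 Mb 17.6 and from 90 to 100 Mb 11.5. Of the 40 sites of at least 50 tags, 27 lay in the distal part and 13 in the proximal part. By segment they were most numerous from 70 to 80 Mb, with 12 among 176 sites, while the fuller segment from 110 to 120 Mb had 5 among 236. The median was 13 tags in both parts of the chromosome.

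The fullest window of chromosome 11 ran from 116 to 117 Mb and held 43 sites, ranking 6 among 2419 windows of all autosomes. Its neighbour from 115 to 116 Mb held 38, and the window from 119 to 120 Mb held 38 as well. The windows from 98 to 99 Mb, from 113 to 114 Mb and from 120 to 121 Mb tied at 35 sites. In the first of these the strongest site held 75 tags. The median over the sites of a window was 11 to 13 tags in the windows starting at 98, 115, 116 and 119 Mb, 16 tags in that starting at 113 Mb and 14 in that starting at 120 Mb. The last of these had 0 sites of at least 50 tags, and the others had 1 or 2. The first window of the chromosome, from 3 to 4 Mb, was second to the fullest with 42 sites. It differed from the rest of the chromosome in its control tags, as described further on.

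**Figure D3:**
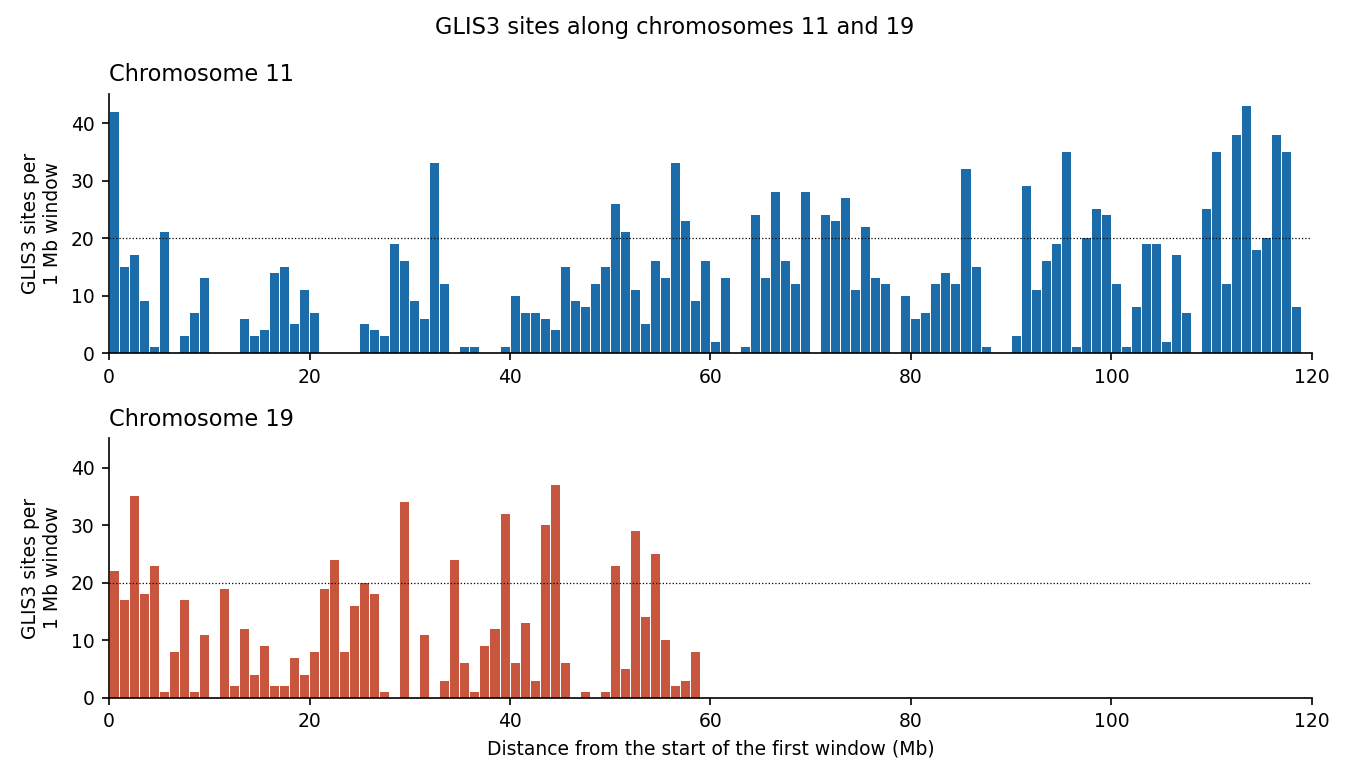
Number of GLIS3 sites in each 1 Mb window along chromosomes 11 (top) and 19 (bottom), against the distance of the window from the start of the first window (Mb), with a dotted line at 20 sites. Chromosome 11 is fullest towards its distal end and in its first window, and chromosome 19 alternates between dense windows of up to 37 sites and thin ones.

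Chromosome 19 showed no such lean to one end. Split at 32.1 Mb, it had 328 sites in the proximal part and 348 (51.5%) in the distal part. Its median was 12 tags in the proximal part (interval 11 to 13) and 14 in the distal part (13 to 15). The sites of at least 50 tags went the other way, with 10 in the proximal part and 6 in the distal part. Its fullest window, from 47 to 48 Mb, held 37 sites and its neighbour from 46 to 47 Mb held 30, with 730 and 525 tags at their sites. The window from 5 to 6 Mb held 35 sites, with a median of 11 tags and no site above 37 tags. The window from 42 to 43 Mb held 32 sites, with a median fold of 16.

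On chromosome 19 the window from 32 to 33 Mb stood between windows with no site. Its 34 sites lay within 697.8 kb, from 32134311 to 32832091, with a median of 14 tags and a strongest site of 95 tags. Before it came a stretch of 2.03 Mb without a site and after it a stretch of 1.34 Mb. This was the single dense window of the 13 on chromosome 19 that adjoined an empty one. On chromosome 11, 4 of 27 dense windows did (14.8%), and on the other autosomes 18 of 201 (8.96%), with 0% to 28.6% on a single one.

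The longest stretch without a site on chromosome 11 ran from 23949592 to 28397150, 4.45 Mb. The next ran from 12609912 to 16491590 (3.88 Mb), from 39038612 to 42758190 (3.72 Mb), from 90239492 to 93829590 (3.59 Mb) and from 36277952 to 38991930 (2.71 Mb). The third and the fifth of these adjoined. Over 6.48 Mb, from 36277952 to 42758190, chromosome 11 held just 2 sites, with 25 and 14 tags. The stretch of 1 Mb just before this span was among the fullest of the chromosome, with 44 sites between 35536711 and 36277951, a median of 13.5 tags and the 2 strongest sites of the chromosome.

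On chromosome 19 the stretches were shorter. The longest ran from 50565232 to 52698490 (2.13 Mb) and the next from 48504572 to 50565030 (2.06 Mb). A single site of 31 tags and a fold of 35.49 lay between them, from 50565031 to 50565231. It had no other site within 2060 kb and 1 or no control tag. Stretches of 2.03 Mb from 30104892 to 32134310, 1.45 Mb from 12871012 to 14322630 and 1.44 Mb from 39005352 to 40440930 followed. All stretches of at least 1 Mb together took up 27.5% of the range from the first to the last site on chromosome 11 (15 stretches) and 23.9% on chromosome 19 (9 stretches). On the other autosomes they took up 31.7% to 48.8%, and the longest stretch there was 11.6 Mb.

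The strongest site of chromosome 11 lay from 35729171 to 35729211. It held 140 tags (95% Poisson interval 117.8 to 165.2), with a fold of 80.15 and 2 control tags, and ranked 10 among all 18513 sites. The next, from 35769251 to 35769291, held 128 tags (106.8 to 152.2) with a fold of 146.55 and 1 or no control tag. These strongest sites lay 40 kb apart, and their intervals overlap. The third held 120 tags from 6389471 to 6389511, and another site of 63 tags lay 45.3 kb before it, from 6344011 to 6344131. A site of 100 tags lay from 102266171 to 102266211 and one of 97 tags from 67021991 to 67022031. The other 5 of the strongest 10 held 69 to 83 tags, and a further site of 69 tags shared the last place. Of the 10, 8 lay in dense windows, while the site of 120 tags lay in a window of 9 sites. None of the 10 had more than 2 control tags.

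The strongest site of chromosome 19 lay from 28608211 to 28608251, with 129 tags (107.7 to 153.3), a fold of 147.7 and 1 or no control tag. It ranked 16 among all sites. The next held 95 tags, from 32252871 to 32253091, in the dense window between empty ones. Sites of 92 tags, from 47496211 to 47496251, and of 91 tags, from 47367091 to 47367131, lay in the fullest window. Sites of 82 tags from 3681611 to 3681671 and of 79 tags from 14489831 to 14489911 followed, and the other 4 of the 10 held 62 to 77 tags. A site of 71 tags among them, from 19858231 to 19858331, was isolated, with no other site within 615.6 kb. It lay in a window of 2 sites. The site ranked 10 held 62 tags and the next one, which was left out, 61.

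**Figure D4:**
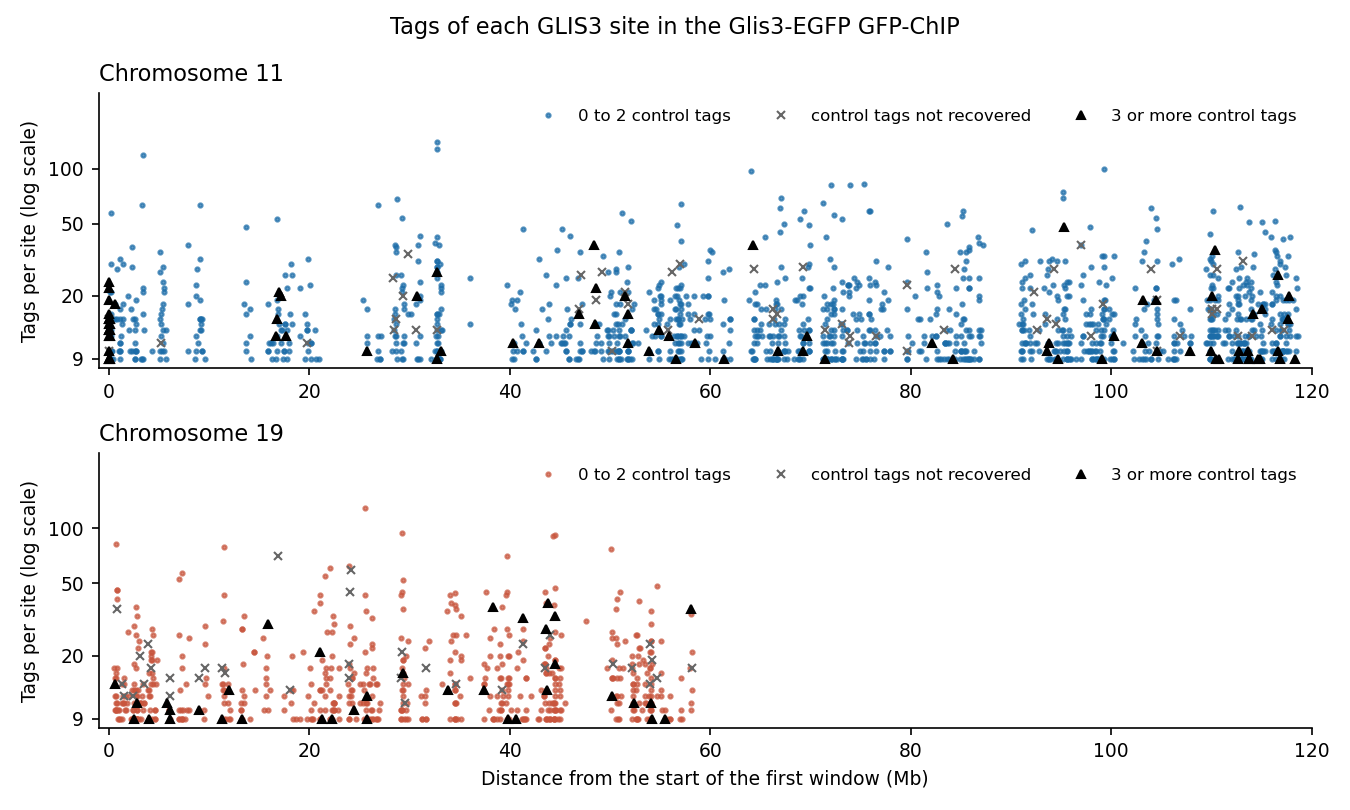
Tags of each GLIS3 site in the Glis3-EGFP GFP-ChIP (log scale) along chromosomes 11 (top, 1487 sites) and 19 (bottom, 676 sites), against the distance from the start of the first window (Mb). Triangles are sites with 3 or more tags in the WT GFP-ChIP, of which 19 stand in the first window of chromosome 11, and crosses are sites whose control tags could not be recovered.

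Strong sites often had another site within 1 kb, with intervals apart from those of other sites on chromosome 11 but not on chromosome 19. On chromosome 11, 26 of the 40 sites of at least 50 tags (65%, interval 48.3% to 79.4%) had another site within 1 kb, and the median distance to it was 230 bp. That neighbour held 9 to 30 tags, with a median of 12, in a list where 3.08% of all sites held at least 50. Of the 1447 sites with fewer tags, 27.6% (25.4% to 30%) had a neighbour this near. On chromosome 19 the numbers were 8 of 16 strong sites (50%, 24.7% to 75.3%) and 33% of the other 660 (29.4% to 36.8%), whose intervals overlap. Whether a flanking site is a separate binding event or a shoulder of the strong one was not tested. Strong sites within 100 kb of one another were found on chromosome 11 but not on chromosome 19. On chromosome 11, 6 pairs of neighbouring strong sites lay within 100 kb, the nearest 6.12 kb apart with 75 and 69 tags. Chromosome 19 had 0 such pairs among its 16 strong sites, though 3 of its windows of 1 Mb held 2 of them. Whether these numbers differ from those of an even scatter was not tested.

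Many sites lay close together on both chromosomes. Another site was found within 10 kb of 900 sites on chromosome 11 (60.5%, interval 58% to 63%) and of 406 on chromosome 19 (60.1%, 56.3% to 63.8%), beside 44.7% to 60.2% on the other autosomes. Within 1 kb the shares were 28.6% and 33.4%, beside 21.5% to 30.6%. A higher density of sites by itself brings sites closer, and its part in these shares was not tested. Joining sites with gaps of at most 10 kb into runs gave 587 single sites on chromosome 11, 167 runs of 2, 106 runs of 3 or 4 and 34 runs of 5 or more. On chromosome 19 there were 270 single sites, 71 runs of 2, 56 runs of 3 or 4 and 12 runs of 5 or more. The number of long runs depended on the rule. With sites within 1 kb merged it was 14 on chromosome 11 and 4 on chromosome 19, among sites with 0 or 1 control tag 22 and 4, with gaps of at most 5 kb 16 and 3, and with gaps of at most 20 kb 56 and 24. At a p-value per site up to 0.001, there were 25 and 7, and in the 50% of sites with the most tags or the highest fold there were 7 on chromosome 11 and 3 or 1 on chromosome 19.

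The median tags were somewhat higher in long runs. In runs of 5 or more the median was 14 tags on chromosome 11 (interval 13 to 16) and 15 on chromosome 19 (13 to 19), while single sites had 13 (12 to 13) and 12 (12 to 13). The median fold on chromosome 11 was 13.7 both in runs of 5 or more and at single sites. On chromosome 19 it was 14.9 in these runs and 12.6 at single sites. Of the strong sites, 10 of 40 on chromosome 11 and 4 of 16 on chromosome 19 lay in such runs, and 8 and 4 were single. Of all sites, 14.7% on chromosome 11 and 11.5% on chromosome 19 lay in such runs, and 39.5% and 39.9% were single. The intervals of the median tags touch at 13 tags, and sites of 1 run share a locus, so these values are given as description.

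The longest run on chromosome 19 held 14 sites over 49.1 kb, from 47489471 to 47538611. Its tags were, in order along the chromosome, 15, 12, 33, 92, 27, 9, 19, 19, 18, 13, 15, 10, 47 and 11. They peaked at the fourth site and again at the one of 47 tags near the distal end, with weaker sites between. Control tags were at most 3 at each of its sites. The next run held 9 sites within 8.54 kb, from 57081431 to 57089971, of 9 to 35 tags. A run of 7 sites within 10.4 kb, from 26956411 to 26966851, held the site of 62 tags among sites of 9 to 18 tags.

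On chromosome 11 a run of 11 sites over 23.7 kb, from 35728891 to 35752611, lay within the dense stretch before the span of 2 sites. Its tags were 11, 140, 10, 15, 29, 9, 16, 29, 16, 31 and 13. The strongest site of the chromosome was the second of the run, and the next highest in it held 31 tags. Its median fold was 17.8, and each site with recovered control tags had at most 2. A run of 8 sites followed from 35786391 to 35799391, with 9 to 31 tags, and the site of 128 tags lay between these runs. Runs of 8 sites also lay from 60125091 to 60149511, with up to 64 tags, and from 78879831 to 78898671, where 2 sites held 59 tags each.

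The longest run of chromosome 11 was of another kind. It held 15 sites over 35.1 kb, from 3028471 to 3063611, at the very start of the mapped chromosome. Its tags were 9, 9, 10, 12, 16, 10, 24, 15, 9, 19, 15, 13, 22, 14 and 15, so no site stood out. The WT GFP-ChIP, which holds no GLIS3-EGFP, had 1 to 12 tags at the 13 sites where control tags were recovered, with a median of 8. The median fold was 2.29, just above the minimum of 2. From 3075871 to 3102511 there followed a run of 9 sites, whose median fold was 4.58 with 3 control tags at the median. Every other run of 5 or more sites on these chromosomes reached a median fold of 8.21 to 29.8, with at most 2 control tags at the median.

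**Figure D5:**
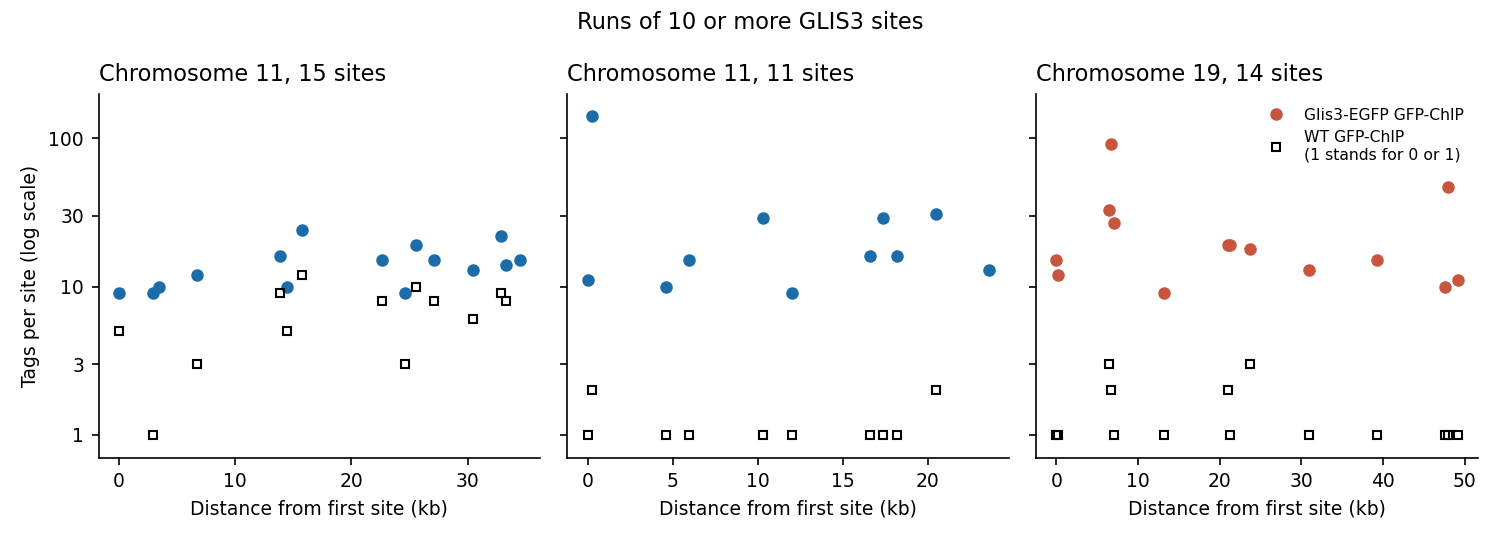
Tags per site (log scale) in the 3 runs of 10 or more GLIS3 sites on chromosomes 11 and 19, against the distance from the first site of the run (kb). Filled circles are the Glis3-EGFP GFP-ChIP and open squares the WT GFP-ChIP where its tags were recovered, with 1 standing for 0 or 1. In the run of 15 sites the control reaches 12 tags, while in the other runs it stays at 3 or below and the strongest sites reach 140 and 92 tags.

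High control signal on chromosome 11 was concentrated in its first window. Of the 42 sites between 3 and 4 Mb, 19 of 39 with recovered control tags (48.7%) had 3 or more, and the median fold was 5.72. On the rest of the chromosome 63 of 1390 (4.53%) did, with a median fold of 13.7. The first window held 19 of the 82 sites of chromosome 11 with 3 or more control tags, and no other window held more than 4. Within it, 18 of the 19 lay from 3028471 to 3192871, among 31 sites with a median fold of 3.43. The widest site of both chromosomes, 1220 bp with 15 tags and a fold of 2.98, lay there too, from 3062391 to 3063611. The first window of the other 18 autosomes held 0 to 27 sites, of which at most 2 had 3 or more control tags. What raises the control there was not tested. Without that window chromosome 11 still held 7.82% of the remaining sites, and its fullest window was unchanged at 43 sites.

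On chromosome 19 the sites with control signal were scattered. There were 36 sites with 3 or more control tags, in 27 windows with at most 3 in any of them, and none had more than 5. The share of sites with 0 or 1 control tag was 81.6% in the whole list, 81% on chromosome 11 (1157 sites, interval 78.8% to 83%) and 79.8% on chromosome 19 (511 sites, 76.5% to 82.9%). Both intervals hold the value of the whole list. The share on chromosome 19 was the lowest of the 19 autosomes, with 79.9% to 84.2% on the 17 others. Control tags could not be recovered as a whole number at 58 sites on chromosome 11 and 36 on chromosome 19.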

How the data were processed

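GLIS3 sites were analysed from 1 deposited list, made from the Glis3-EGFP GFP-ChIP with the WT GFP-ChIP as control. The input and RNA libraries were not used here. According to the submitters' processing notes and the file header, the authors mapped reads to mm9 with Bowtie and ran SISSRs 1.4 (P-value 0.05, E-value 10, window 20 bp, fragment length 204 bp), keeping 1 tag per position. For Bowtie, the version was not given in the sources used here. A site needed 9 tags, at least 2 on each side, and a fold of 2. The Methods of the paper describe another call, on mm10 with HOMER. The deposited count is the tags at a site, not scaled by depth. The deposited fold is a ratio to control tags scaled by library size. The deposited p-value is the caller's.

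Control tags were recovered as tags × the ratio of library sizes / fold, kept where whole within 2% (2069 of 2163 sites), where 1 stands for 0 or 1. A site was placed in a 1 Mb window by its middle, and gaps of at most 10 kb joined sites into runs. Intervals are 95% exact binomial, Poisson or, for medians, rank intervals and cover counting error only; sites share 1 library and are not replicates. Named were, per chromosome, the 10 sites with the most tags, the 5 fullest windows, the 5 longest stretches, the runs of 10 or more sites and the 3 longest runs; further runs and the isolated sites were named after their values were seen. Genes per chromosome came from RefSeq (GRCm38.p6), without coordinates. The chromosomes and gene list were chosen with earlier results of these data known. Counting was tested on simulated lists. Scripts ran under Python 3.11.15 with pandas 2.3.3, NumPy 2.4.6, Matplotlib 3.10.9 and SciPy 1.17.1.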

Additional observations from a re-analysis of the deposited data

How the results depend on the processing

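The share of all sites held by chromosome 11 (7.82% to 8.41%) and by chromosome 19 (3.5% to 3.74%) stayed within its interval under every alternative run. The share of empty windows did too, but ranged from 14.3% to 18.5% on chromosome 11 and from 5.17% to 20.3% on chromosome 19. Leaving out the run or the window of high control tags on chromosome 11, the latter chosen after seeing the data, moved no value beyond its interval or by over 1.5 times. Stricter lists lower counts and raise medians by their construction. Values are given for chromosome 11 and then chromosome 19. With the 50% of sites that had the most tags, the median was 19 and 18 tags, the median fold 19.5 and 18.3, the fullest window held 22 and 19 sites, 44.6% and 49.7% of sites had another within 10 kb, there were 7 and 3 runs of 5 or more, the longest of 8 and 6 sites, and 85.1% and 83.5% had 0 or 1 control tag. With the 50% of the highest fold these values were 18 and 17 tags, a fold of 19.5 and 18.3, 26 and 20 sites, 43.3% and 47.1%, 7 runs and 1 run, 8 and 7 sites, and 95.7% and 94.1%. With sites limited to p-values up to 0.001, the median fold was 14.9 on both, 57% and 54.3% had a neighbour, chromosome 19 had 7 long runs, and 95.5% and 94.3% had 0 or 1 control tag. With sites within 1 kb merged, 46% and 43.6% had a neighbour, and there were 14 and 4 long runs, the longest of 9 sites on each. Among sites with 0 or 1 control tag, the median fold was 14.9 on both, 54.9% and 50.7% had a neighbour, there were 22 and 4 long runs, and the longest on chromosome 11 held 8 sites. Joined at 5 kb there were 16 and 3 long runs, with at most 9 sites on chromosome 19, and joined at 20 kb 56 and 24, with up to 24 sites on chromosome 11. Within 5 kb, 49.9% and 50.9% had a neighbour. No paired analysis was possible because each group had 1 ChIP library and the numbered RNA libraries were not analysed. Only counting error could be estimated from 1 library per group.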
